A study of Mus musculus with 4 samples.

Results

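The ADAM and ADAMTS metalloproteinases and their ADAMTS-like relatives were represented by 58 of the 24346 gene symbols with expression values in mouse bone marrow-derived mesenchymal stem/stromal cells (mBMSCs). They were picked by their symbols, which are made of Adam, Adamts, Adamtsl or Adamdec, a number and at most 1 letter. By name, 33 were Adam genes, 19 were Adamts genes, 5 were Adamtsl genes and 1 was Adamdec1.

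ADAMs are mostly membrane-anchored proteins with a disintegrin domain and, in many members, a zinc metalloproteinase domain that cuts the extracellular part off other membrane proteins, a process called ectodomain shedding. ADAMTS proteins are secreted, carry thrombospondin repeats and act on the extracellular matrix, where subgroups cleave proteoglycans such as versican, trim the N-terminal propeptide of procollagen or cut matrix glycoproteins. ADAMTS-like proteins keep the repeats but lack the catalytic domain. In bone and marrow stroma these families are known for matrix turnover and for the release of cytokines, growth factors and their receptors.

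The cells came from the femoral marrow of C57BL/6 mice aged 3 months and nonadherent hematopoietic cells had been washed away. RNA was taken 72 h after transfection with a scrambled siRNA (siScr, n = 2) or with siRNA against ZBP1 (siZBP1, n = 2), and no other treatment separated the groups. ZBP1 is a sensor of nucleic acids, and the study compared the groups to learn what depends on it in mBMSCs. The sources describe the samples as duplicates without saying that they came from separate animals or cultures. The p-values therefore set a group difference only against the spread between these samples, pooled in part over genes, and that spread may be technical. Which of the study's siRNAs against ZBP1 was used for sequencing is not given in the sources used here.

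Expression was given as FPKM, which scales the fragments of a gene to the length of its transcript and to the size of the library. Zbp1 itself was at 86.0 and 62.0 FPKM in the siScr replicates and at 11.5 and 11.6 FPKM in the siZBP1 replicates, a log2 difference of -2.56 (SE 0.159, limma adjusted p = 0.00322). From the steps between low values, depth was estimated only roughly, at 10 to 18.8 M fragments per sample. The samples expressed 18 of 18 macrophage markers found in the table at a mean of at least 1 FPKM, with a summed level of 12235 and 13341 FPKM in siScr cells and 18214 and 17374 FPKM in siZBP1 cells, and 12 of the 18 were higher by limma. Of 11 tested markers of mesenchymal stromal cells, 6 were lower. The stromal list summed to 5680 and 4716 FPKM in siScr cells and 3323 and 3360 FPKM in siZBP1 cells, mostly in Col1a1, Col1a2 and Col3a1. All 5 tested osteoblast markers were lower, with a summed osteoblast level of 411 and 333 FPKM against 64.1 and 60.2 FPKM. Of all tested genes, 14.8% were lower and 13.5% higher. Other lists were low, with sums of 0.581 to 4.64 FPKM for neutrophil markers, 0.133 to 0.737 FPKM for lymphoid markers and 9.50 to 10.02 FPKM for endothelial markers, and S100a9, Elane, Mpo and Cd3g were at 0 in every sample. The adipocyte sum of 91.4 to 114 FPKM lay almost wholly in Fabp4, with Plin1, Cfd and Lep at 0, and no tested marker of these 4 lists passed the test. In bulk RNA, fewer cells of a type and less RNA per cell cannot be told apart, and the part of these shifts in the changes of the family was not tested.

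Expression of the family was concentrated in a few ADAM genes. Of the 58 members, 14 were at 0 in all 4 samples, 11 had a mean above 0 and under 0.1 FPKM, 12 lay from 0.1 to 1 FPKM and 21 reached a mean of at least 1 FPKM. Only 7 members reached 10 FPKM and 5 reached 40 FPKM. These 5, Adam8, Adam15, Adam9, Adam10 and Adam17, held 82.6% to 83.8% of the family's summed FPKM in each sample. The sum itself was 631 and 642 FPKM in siScr cells and 686 and 696 FPKM in siZBP1 cells, or 0.128% to 0.145% of all FPKM.

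**Figure D1:**
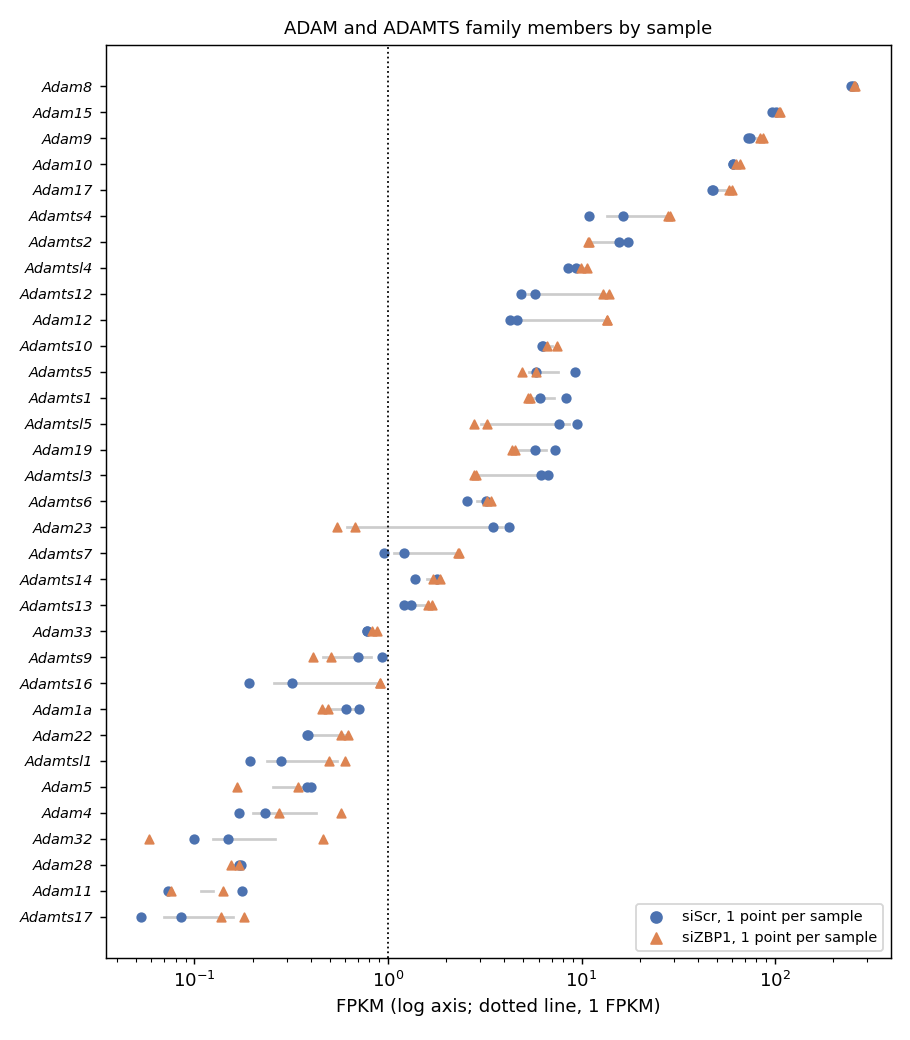
FPKM of the 33 members with a mean of at least 0.1 FPKM, on a log axis, with 1 point per sample (circles, siScr; triangles, siZBP1), a grey line between the group means and a dotted line at 1 FPKM. Adam8, Adam15, Adam9, Adam10 and Adam17 stand above all other members in every sample, and the symbols of the groups are farthest apart for Adam23.

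Adam8, a sheddase first known from myeloid cells, was the most abundant member. It was at 252 and 248 FPKM in siScr cells and at 255 and 258 FPKM in siZBP1 cells. That placed it above 97.9% of the genes with a mean of at least 1 FPKM, and it alone held 37.1% to 39.9% of the family's FPKM in a sample. Adam15, which can bind integrins, followed at 96.1 and 101 FPKM in siScr cells and 106 and 105 FPKM in siZBP1 cells. Adam10, the main sheddase of Notch receptors, was at 60.8 and 60.9 FPKM in siScr cells and 62.9 and 66.3 FPKM in siZBP1 cells. For all 3 genes both siZBP1 samples lay above both siScr samples by a small margin, and the log2(FPKM + 1) differences of 0.04, 0.09 and 0.08 did not pass the test (limma adjusted p = 0.466, 0.174 and 0.225).

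At the other end stood the ADAMs of testis and epididymis, which act in sperm. Of the 21 in the table, 13 were at 0 in all samples and none reached 1 FPKM. The highest was Adam1a, at a mean of 0.658 FPKM in siScr cells and 0.474 FPKM in siZBP1 cells, followed by Adam5 (0.392 and 0.254 FPKM), Adam4 (0.202 and 0.423 FPKM) and Adam32 (0.124 and 0.260 FPKM). Of Adam32, the siZBP1 replicates read 0.462 and 0.0584 FPKM, so its higher mean came from 1 sample. The remaining gene at 0 in every sample was Adamts20.

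The promoters of a few members are shown because the study asks about promoters that respond to β-catenin, whose partners bind words called the WRE core here, which read CTTTGAA or else CTTTGAT and likewise CTTTGTA or else CTTTGTT. They come from RefSeq on GRCm38.p6, the build of the files, and cover 250 bases before to 50 bases after the start of transcription. The study looked for such words around the start of Zbp1 in a wider window. The table held an entry for 31 of the 58 members and 14 of the 21 members with a mean of at least 1 FPKM, and Adam12, Adamts4, Adamts7 and Adam9 had none. Words were searched on both strands and may overlap, and a member with several windows was counted if any of them held the word. The shares of all promoters count single windows, whether or not their gene was expressed, so they are not matched to the 14 members. The WRE core was found in 1 of the 14, Adamts1, and in 16.9% of all 32851 promoters. GGGCGG, the GC box, was found in 12 of the 14 and in 35.7% of all promoters. TATAAA was found in 1 of the 14, again Adamts1, and in 13.6% of all promoters. TGTGGT, the RUNX core, was found in 2 of the 14 (16.8% of all promoters), and TGAGTCA or TGACTCA, an AP-1 word, in 1 of the 14 (5.20% of all promoters). Letters in capitals below mark these words, and lower case marks the rest. Adam23 is shown as the member with the largest fall, Adamtsl3 as a fall whose promoter is dense in GC boxes, Adamts12 as a rise, and Adamts1 for its WRE core. Read 5′ to 3′ on the gene's strand, they are Adam23 at chr1:63445641-63445940 (plus strand), Adamtsl3 at chr7:82335444-82335743 (plus strand), Adamts12 at chr15:11064523-11064822 (plus strand) and Adamts1 at chr16:85803064-85803363 (minus strand).
Adam23: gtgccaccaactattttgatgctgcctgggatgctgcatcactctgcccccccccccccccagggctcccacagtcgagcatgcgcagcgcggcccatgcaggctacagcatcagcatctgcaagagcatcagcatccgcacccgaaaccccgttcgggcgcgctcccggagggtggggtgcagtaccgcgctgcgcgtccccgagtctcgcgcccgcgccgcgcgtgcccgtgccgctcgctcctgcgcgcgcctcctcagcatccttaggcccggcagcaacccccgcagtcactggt
Adamtsl3: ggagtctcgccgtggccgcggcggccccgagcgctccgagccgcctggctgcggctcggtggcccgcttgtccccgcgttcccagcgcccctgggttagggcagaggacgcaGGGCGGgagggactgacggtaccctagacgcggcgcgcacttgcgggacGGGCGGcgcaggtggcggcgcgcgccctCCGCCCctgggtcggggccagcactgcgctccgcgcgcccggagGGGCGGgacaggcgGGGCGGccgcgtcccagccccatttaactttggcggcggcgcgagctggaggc
Adamts12: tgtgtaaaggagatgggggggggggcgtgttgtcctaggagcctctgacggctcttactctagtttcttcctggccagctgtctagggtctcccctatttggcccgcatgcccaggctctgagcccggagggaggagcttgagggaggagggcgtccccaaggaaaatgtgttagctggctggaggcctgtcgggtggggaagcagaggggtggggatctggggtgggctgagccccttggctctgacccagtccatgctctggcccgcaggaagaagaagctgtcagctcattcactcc
Adamts1: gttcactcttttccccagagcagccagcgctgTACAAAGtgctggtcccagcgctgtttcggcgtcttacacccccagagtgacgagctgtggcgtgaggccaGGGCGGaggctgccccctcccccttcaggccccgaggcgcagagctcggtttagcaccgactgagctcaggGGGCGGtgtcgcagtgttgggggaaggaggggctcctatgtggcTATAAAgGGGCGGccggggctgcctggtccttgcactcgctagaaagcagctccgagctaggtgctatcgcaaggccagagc
Adam23 and Adamts12 held none of the words searched, Adamtsl3 held 5 GC boxes with a GC content of 78.7%, and Adamts1 held 3 GC boxes, a WRE core in its reverse orientation and a TATAAA word near the start. A match is a description of letters, and no match says only that these letters are not in the window.

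Knockdown of Zbp1 was accompanied by changes in both directions within the family. Of the 21 members tested by limma on log2(FPKM + 1), 4 were lower in siZBP1 cells, which is 19.0% of them beside 14.8% of all 11959 tested genes, and 6 were higher, which is 28.6% beside 13.5% of all tested genes. Adam23, Adamtsl5, Adamtsl3 and Adamts2 were lower, and Adam12, Adamts12, Adamts4, Adamts7, Adam17 and Adam9 were higher. The median log2 difference was 0.11 over the tested members and 0.0045 over all tested genes. The calls on members did not hold when either siZBP1 replicate was left out, which leaves 1 sample in that group. Nearly all calls over all genes were lost in those fits too, so this loss is not particular to the family. The called members kept their direction there. For any 1 gene, the smallest two-sided p that exact permutation of 2 and 2 samples allows is 0.333.

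**Figure D2:**
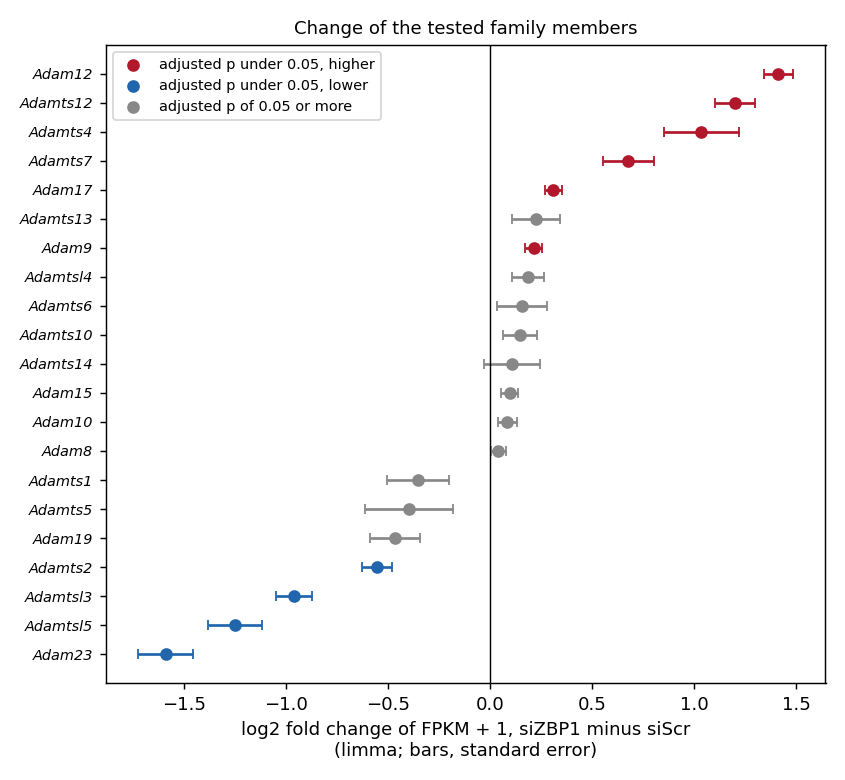
Log2 fold change of FPKM + 1, siZBP1 minus siScr, for the 21 tested members, with 1 point per gene and bars for the limma standard error. Red and blue points passed an adjusted p of 0.05, from Adam12 at 1.41 to Adam23 at -1.59, and the 11 grey points did not.

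The values of the groups did not overlap, with siZBP1 higher, for 13 of the 21 members (61.9%) beside 34.7% of all tested genes, and with siZBP1 lower for 7 (33.3%) beside 33.7%. Only Adamts14 overlapped. The ratio of the group means, the measure the study used, was over 1.5-fold lower for 9 of the 40 members with both means above 0 (22.5%, beside 13.8% of all genes) and over 1.5-fold higher for 12 (30%, beside 10.7%). Of these, 4 lower and 4 higher had a mean of at least 1 FPKM, and the others rested on values under 1 FPKM.

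**Figure D3:**
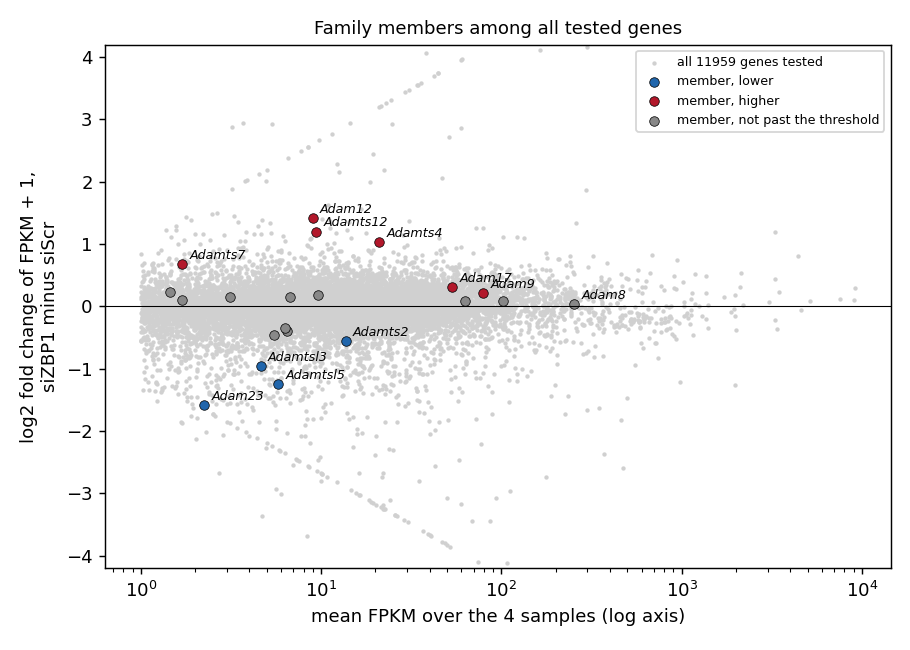
Log2 fold change of FPKM + 1, siZBP1 minus siScr, against mean FPKM on a log axis for all 11959 tested genes (grey) with the 21 members on top, coloured by their limma call, and 21 genes beyond ±4.2 outside the axis. Adam12 at 1.41 and Adam23 at -1.59 mark the ends of the range of members, and Adam8 lies near 0 at the upper end of levels.

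Among the membrane-anchored ADAM proteinases, 3 of 7 tested genes rose and none fell. Of all tested genes, 13.5% were higher and 14.8% lower. Adam12, a sheddase of growth factor ligands and binding proteins, made the largest rise among tested members. It was at 4.29 and 4.63 FPKM in siScr cells and at 13.6 and 13.5 FPKM in siZBP1 cells. Replicates lay close together and the groups far apart, with a 3.03-fold ratio of means and a log2 difference of 1.41 (SE 0.0701, limma adjusted p = 0.00242). Adam12 spans chr7:133883199-134232146 on the minus strand of GRCm38.

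Adam17, the sheddase of tumour necrosis factor, was at 47.7 and 47.2 FPKM in siScr cells and at 58.0 and 60.0 FPKM in siZBP1 cells. Both siZBP1 samples were higher by about the same amount, with a log2 difference of 0.31 (SE 0.0416, adjusted p = 0.0110). Adam9, a sheddase of several membrane ligands, was at 72.6 and 74.1 FPKM and at 84.0 and 86.3 FPKM, with a log2 difference of 0.21 (SE 0.0398, adjusted p = 0.0229). These were small rises on high levels, and the limma call on Adam9 was lost without the variance trend (adjusted p = 0.0623) and without siScr replicate 1 (0.0742) or siScr replicate 2 (0.0506), that on Adam17 without siScr replicate 1 (0.0513).

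Adam19, a relative of Adam12 that can shed neuregulin, ran the other way. It was at 7.31 and 5.78 FPKM in siScr cells and at 4.51 and 4.37 FPKM in siZBP1 cells, a log2 difference of -0.46 that did not pass the test (SE 0.122, adjusted p = 0.0517). The ratio of Adam12 to Adam19 was 0.587 and 0.801 in siScr cells and 3.00 and 3.09 in siZBP1 cells, so the more abundant of the pair was Adam19 in the first group and Adam12 in the second. Adam33 (0.780 and 0.853 FPKM) and Adam28 (0.173 and 0.163 FPKM), given as siScr and siZBP1 means, lay under the minimum of 1 FPKM for the test. Summed over the 9 proteinases, the level was 542 FPKM in both siScr samples and 586 and 594 FPKM in siZBP1 cells.

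Among the ADAMs that lack an active metalloproteinase site, Adam23 fell and the others were low. Adam23, a cell adhesion protein that can bind integrins, was at 4.22 and 3.50 FPKM in siScr cells and at 0.548 and 0.679 FPKM in siZBP1 cells. The groups were far apart, with a 6.29-fold lower mean and a log2 difference of -1.59 (SE 0.134, adjusted p = 0.00471), the largest fall of the family among tested members. From the rough depth this corresponds to about 380 and 423 fragments against 35 and 71. Adam22, its relative in synapses, was at a mean of 0.385 FPKM in siScr cells and 0.6002 FPKM in siZBP1 cells, and Adam11 at 0.125 and 0.108 FPKM. Adam23 spans chr1:63445891-63596276 on the plus strand.

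The proteoglycan-cleaving ADAMTS genes split, with Adamts4 higher and its relatives not past the test. Adamts4, an aggrecanase that also cuts versican, was at 10.9 and 16.3 FPKM in siScr cells and at 28.7 and 28.1 FPKM in siZBP1 cells. The siScr samples differed from each other, but both lay well below the siZBP1 samples, with a log2 difference of 1.03 (SE 0.184, adjusted p = 0.0203). Adamts5, the other main aggrecanase, was at 5.83 and 9.26 FPKM in siScr cells and at 4.95 and 5.79 FPKM in siZBP1 cells. Its lower siScr sample lay just above the higher siZBP1 sample, and the log2 difference of -0.40 (SE 0.215, adjusted p = 0.236) did not pass. Adamts1, a versicanase with the promoter printed above, was at 6.08 and 8.36 FPKM and at 5.31 and 5.45 FPKM, with a log2 difference of -0.35 (SE 0.151, adjusted p = 0.152). For all 3 genes siScr replicate 2 was above siScr replicate 1. Without siScr replicate 1 the log2 differences of Adamts5 and Adamts1 were -0.69 and -0.55 (adjusted p = 0.0662 and 0.0532), against -0.10 and -0.15 without siScr replicate 2 (adjusted p = 0.589 and 0.287).

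**Figure D4:**
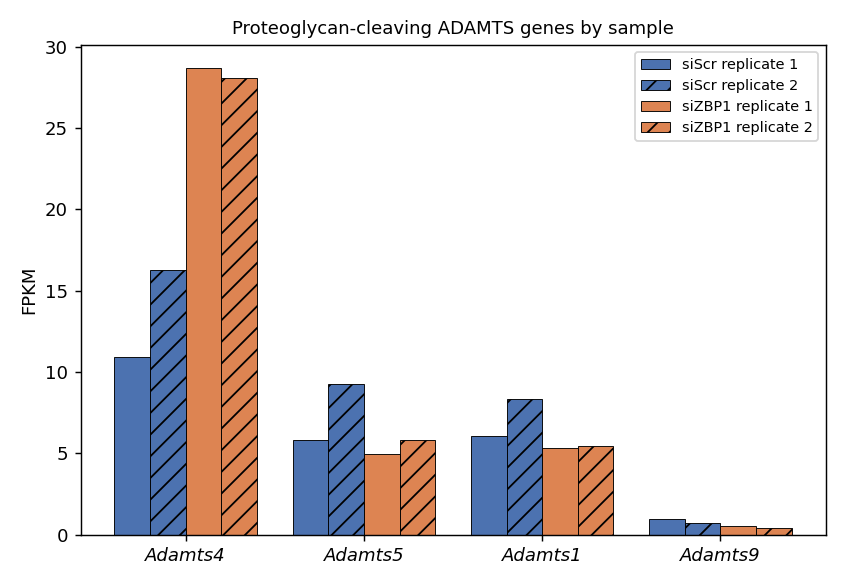
FPKM of Adamts4, Adamts5, Adamts1 and Adamts9 in each of the 4 samples, with bars from 0 (blue, siScr; orange, siZBP1; hatched, replicate 2). Adamts4 stands at 28.7 and 28.1 FPKM in siZBP1 cells, above its siScr bars, and the bars of the other 3 genes are lower in siZBP1 cells than in siScr cells.

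The ratio of Adamts4 to Adamts5 was 1.87 and 1.76 in siScr cells and 5.79 and 4.85 in siZBP1 cells, and that of Adamts4 to Adamts1 was 1.80 and 1.95 against 5.41 and 5.15. Adamts9, a further versicanase, was at a mean of 0.816 FPKM in siScr cells and 0.460 FPKM in siZBP1 cells, under the minimum for the test, and Adamts8 and Adamts15 stayed under 0.1 FPKM. The summed level of the subgroup was 23.8 and 34.6 FPKM in siScr cells and 39.5 and 39.7 FPKM in siZBP1 cells.

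Adamts7 and Adamts12, paralogs that cut the cartilage oligomeric matrix protein, both rose. Adamts12 was at 4.87 and 5.74 FPKM in siScr cells and at 13.0 and 13.9 FPKM in siZBP1 cells. The groups did not overlap, with a 2.54-fold ratio of means and a log2 difference of 1.20 (SE 0.0962, adjusted p = 0.00442). Adamts7 was at 1.21 and 0.951 FPKM in siScr cells and at 2.33 and 2.30 FPKM in siZBP1 cells. It was the lowest of the called members, with a 2.15-fold ratio of means and, on the log2(FPKM + 1) scale that understates low genes, a difference of 0.68 (SE 0.125, adjusted p = 0.0223). Together they held 6.07 and 6.69 FPKM in siScr cells and 15.3 and 16.2 FPKM in siZBP1 cells.

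Of the procollagen N-propeptidases, which trim fibrillar procollagens, Adamts2 fell. It was at 17.4 and 15.6 FPKM in siScr cells and at 10.9 FPKM in both siZBP1 samples. The groups were separate, with a 1.52-fold lower mean and a log2 difference of -0.56 (SE 0.0735, adjusted p = 0.0105). Adamts14 was at 1.37 and 1.80 FPKM and at 1.70 and 1.86 FPKM, with overlapping groups (adjusted p = 0.601), and Adamts3 had a mean under 0.1 FPKM. The subgroup's sum was 19.0 and 17.4 FPKM in siScr cells and 12.7 and 12.8 FPKM in siZBP1 cells, beside the lower osteoblast markers given above.

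The ADAMTS-like genes, which encode secreted proteins of the matrix, held 2 of the 4 falls. These were 2 of the 3 tested in the subgroup, beside 14.8% lower of all tested genes. Adamtsl5 was at 9.50 and 7.64 FPKM in siScr cells and at 2.77 and 3.26 FPKM in siZBP1 cells. That is a 2.84-fold lower mean and a log2 difference of -1.25 (SE 0.132, adjusted p = 0.00700). Adamtsl3 was at 6.15 and 6.70 FPKM in siScr cells and at 2.85 and 2.78 FPKM in siZBP1 cells, a 2.28-fold lower mean with a log2 difference of -0.96 (SE 0.0874, adjusted p = 0.00530). Adamtsl4 did not follow them. It was at 8.47 and 9.40 FPKM and at 9.98 and 10.6 FPKM (log2 difference 0.19, adjusted p = 0.150). Adamtsl1 was at a mean of 0.237 FPKM in siScr cells and 0.548 FPKM in siZBP1 cells. In sum the subgroup was at 24.3 and 24.0 FPKM against 16.2 and 17.2 FPKM.

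The remaining ADAMTS genes that reached 1 FPKM showed no call. Adamts10 and Adamts6, relatives with roles around microfibrils, were at 6.23 and 6.35 FPKM against 7.50 and 6.66 FPKM, and at 2.56 and 3.22 FPKM against 3.25 and 3.39 FPKM. Adamts13, the von Willebrand factor protease, was at 1.31 and 1.22 FPKM and at 1.61 and 1.68 FPKM. The limma adjusted p-values were 0.262, 0.387 and 0.219. Adamts16 lay under that minimum, at 0.192 and 0.321 FPKM in siScr cells and 0.913 and 0.905 FPKM in siZBP1 cells. Both siZBP1 samples lay above both siScr samples, and when all genes with a mean above 0 were tested it was called higher, with a log2 difference of 0.60 (SE 0.0795, limma adjusted p = 0.0178). It was the only call among the 23 members with a mean above 0 and under 1 FPKM in that fit. Adamts17 was at a mean of 0.0695 and 0.159 FPKM. Adamts18 was at 0.0977 and 0.127 FPKM in siScr cells and is listed at 0 in both siZBP1 samples.

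Genes that act with the family were examined by list, and the lists were chosen with earlier results of these data known. For the counts below, 14.8% of all tested genes were lower and 13.5% higher. Of the inhibitors and the endocytic receptor that clears ADAMTS proteases, 3 of 5 tested genes fell and none rose, with a median log2 difference of -0.80 beside 0.0045 over all tested genes. The largest was Timp3, the matrix-bound inhibitor of ADAM17 and the aggrecanases, at a mean of 817 ± 120 FPKM in siScr cells and 134 ± 8.76 FPKM in siZBP1 cells (SD, n = 2). Its log2 difference was -2.59 (SE 0.114, adjusted p = 0.00221). Timp2 and Reck were the other falls. Set beside Adamts4, Timp3 was 82.6 and 45.0 times as abundant in siScr cells and 4.45 and 4.99 times in siZBP1 cells. The ratio of Adam17 to Timp3 was 0.0529 and 0.0644 against 0.454 and 0.428.

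**Figure D5:**
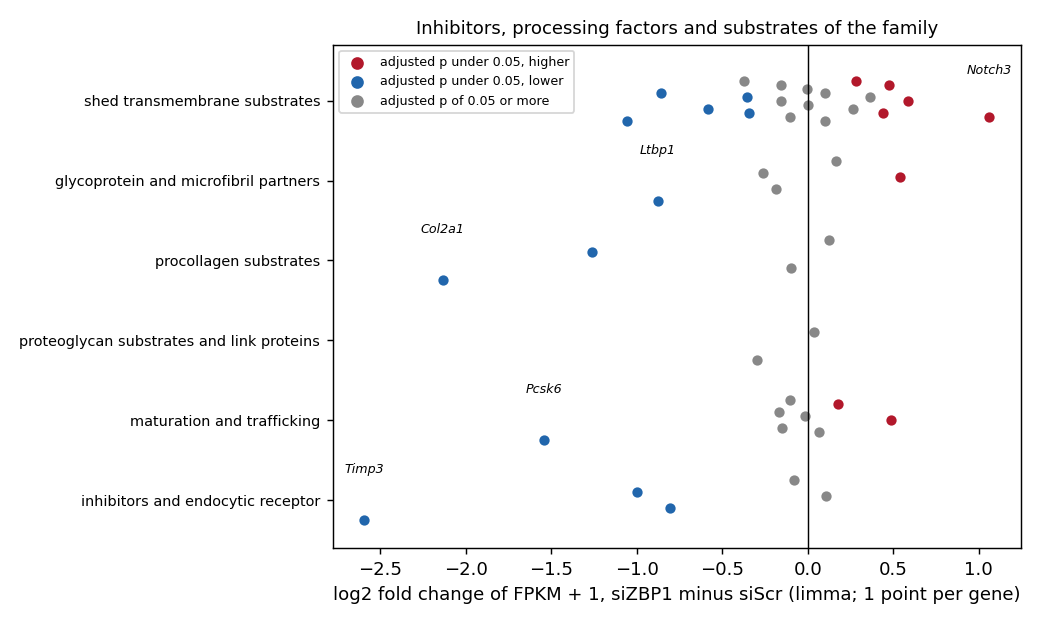
Log2 fold change of FPKM + 1, siZBP1 minus siScr, for the tested genes of 6 lists of partners, with 1 point per gene, spread vertically only to separate points, and coloured by the limma call. Timp3 lies farthest left at -2.59, and the shed transmembrane substrates lie on both sides of 0, with 5 lower and 5 higher.

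Of the maturation and trafficking factors, 1 of 8 tested genes fell and 2 rose. Pcsk6, a proprotein convertase of the kind that activates these enzymes, fell from a mean of 5.12 to 1.10 FPKM (log2 difference -1.54, adjusted p = 0.00373). Furin, the best known of these convertases, rose slightly, from a mean of 48.3 to 54.7 FPKM (log2 difference 0.18, limma adjusted p = 0.0453). Rhbdf2, which guides ADAM17 to the surface, rose from a mean of 12.5 to 18.0 FPKM (log2 difference 0.49, limma adjusted p = 0.00875). Of the procollagen substrates, 2 of 4 fell, Col1a1 and Col2a1. The larger log2 difference was that of Col2a1, a low gene, at -2.13 (limma adjusted p = 0.0131). It was at 5.41 and 2.50 FPKM in the siScr replicates and at a mean of 0.0788 FPKM in siZBP1 cells. Col1a1 fell from a mean of 2793 to 1160 FPKM (log2 difference -1.26, limma adjusted p = 0.00480). Of the glycoprotein and microfibril partners, Fn1 rose and Ltbp1 fell among 5 tested, with Ltbp1, a latent TGF-β binding protein, at 21.7 and 11.3 FPKM in mean. Of the proteoglycan substrates and link proteins, neither of the 2 tested passed, and Vcan, the versican gene, was at 14.2 ± 1.82 FPKM and 14.5 ± 0.0993 FPKM (SD, n = 2). Of 20 tested shed transmembrane substrates, 5 fell and 5 rose, with a median of 0.0010. Notch3, a receptor that ADAM10 cuts, changed most, from a mean of 1.22 to 3.63 FPKM (log2 difference 1.06, adjusted p = 0.00583). Csf1r, among the rises, is also a macrophage marker, and 12 of the 18 macrophage markers were called higher, as given above.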

How the data were processed

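RNA-seq was analysed for 4 samples of mBMSCs, 2 siScr and 2 siZBP1, 72 h after transfection. The deposited values are FPKM per gene symbol, made by the authors from TruSeq libraries mapped to mm10 with TopHat; the submitters' processing notes also name Cufflinks, whereas the methods name HTSeq. Read counts were not used, and depth was estimated only roughly from low values, by a method revised after a first result was seen. The authors' group means equal the replicate means and were not tested. Values were tested as log2(FPKM + 1) in limma (3.58.1, R 4.3.3), using its variance trend and the genes whose mean reached 1 FPKM, with Benjamini-Hochberg adjustment over all 11959 genes at 0.05. Ratios of group means used a fold of 1.5. In simulated data where 200 of 11959 genes had a log2 change of 1.5, limma called 199, and 12 of 11759 unchanged genes. The simulated noise was normal with equal spread in both groups, and the change was larger than that of every called member except Adam23. It therefore does not measure how well smaller changes are called. Gene positions came from GENCODE M21 on GRCm38, and promoters from RefSeq. Members at or above 1 FPKM are given by sample, those from 0.1 FPKM by group means and the rest by count, and of each partner list the largest change past the threshold. Other genes named in a list were chosen after their values were seen, as were the promoters shown. Members and lists were chosen with earlier results of these data known. Alternatives changed the pseudocount, filter, scaling, variance trend and replicate block, or left out a sample. Python 3.11.15 was used with pandas 2.3.3, numpy 2.4.6 and matplotlib 3.10.9.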

Additional observations from a re-analysis of the deposited data

How the results depend on the processing

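With each sample left out in turn, limma called 0 to 5 members lower and 0 to 5 higher, and over all genes 23 to 1297 lower and 22 to 1019 higher. The lone sample of a group was then assumed to vary like the others. Leaving out either siZBP1 replicate removed the calls on members and nearly all of those over all genes. The 10 called members kept their direction there. Most calls on members were kept when a siScr replicate was left out instead. The cause was not tested. Testing only genes with a mean of at least 5 FPKM left 2 members lower, since fewer members were tested. Without the filter 44 members were tested, 4 lower and 7 higher, the further call being Adamts16. Over all 17788 genes of that fit, 1595 were lower and 1354 higher. Over 1.5-fold, adding 1 FPKM to both means gave 3 members lower and 5 higher, and a mean of at least 1 FPKM gave 4 and 4. The shares of all genes past 1.5-fold in these settings were not computed. The log2 difference of Adamts14 ranged from -0.0092 without siScr replicate 1 to 0.23 without siScr replicate 2. Adam19 passed with a pseudocount of 0.1 or 0.5, in the replicate block and without siScr replicate 2, with adjusted p-values of 0.0401 to 0.0484.

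In the replicate block fit 5 members were lower and 6 higher, and over all genes 1654 and 1465. The sources do not state a pairing of equal-numbered samples. Their deviations had a correlation of -0.063 over 11959 genes, which cannot show whether they share a culture, an animal or a batch. Settings that used all samples, the block included, kept 84 of 85 calls on members and Zbp1. FPKM values do not show the fragment counts behind them, so the counting error of low genes was not modelled from counts.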
